A study of Mus musculus with 22 samples.

Results

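The 39 listed interferon-stimulated genes are genes whose transcription rises in cells exposed to interferons. They were described here in inguinal white fat, the subcutaneous fat pad of the groin, of PPARα-null and wild-type male mice kept in the cold or at thermoneutrality. A listed gene counted as measured where a probe set carried its symbol and no other, and the brightest such probe set over all arrays stood for it. Of the 39 genes, 36 were measured, among 22180 genes in all. Ifi44 had no probe set of its own, Dtx3l lay on a probe set shared with Parp9, and Gbp2 on one shared with Gbp2b. The related gene Ifi44l was left out of the list.

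Null mice at 5 °C (n = 5) and wild-type mice at 5 °C (n = 5) were set against null mice at 28 °C (n = 6) and wild-type mice at 28 °C (n = 6), with 1 mouse per array. Null mice carry PPARalpha-null alleles in all tissues, wild-type mice are C57BL/6J, and both lines were bought from Jackson Laboratories and then bred on in 1 facility. The labels do not say that null and wild-type mice were littermates, so genotype and line cannot be told apart. All were males aged 3 to 4 months on a C57BL/6 background that first lived at 28 °C for 5 weeks. The cold groups then had 1 week at 21 °C and 10 days at 5 °C, with chow throughout, while the others stayed at 28 °C. The title of the study asks whether PPARα, a nuclear receptor that turns on genes of fatty acid oxidation, is needed for browning of fat in the cold. Brown and beige fat markers showed the cold exposure on every array. Ucp1, the uncoupling protein of brown fat, averaged 12.45 ± 0.13 in null mice at 5 °C and 5.55 ± 0.66 in null mice at 28 °C, as log2 expression (SD). In wild-type mice Ucp1 averaged 12.40 ± 0.08 at 5 °C and 5.35 ± 0.47 at 28 °C. Ppara itself averaged 4.88 ± 0.43 in null mice and 4.72 ± 0.23 in wild-type mice at 28 °C. No source used here gives the position of its probes relative to the deleted stretch, and Ppara does not check the genotype labels.

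Interferons are secreted proteins of the antiviral and antimicrobial defence. Type I and type III interferons act through the kinases Jak1 and Tyk2 to form a complex that holds Stat2 and Irf9 and binds the interferon-stimulated response element in promoters. Interferon gamma acts through another promoter element, the gamma-activated site. The products of the induced genes sense viral RNA, block translation, degrade RNA or stop viruses at membranes, and many of the genes are also active at a low level without infection. In fat, macrophages, lymphocytes, stromal cells and adipocytes can all carry such transcripts.

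Promoter sequence was not used to choose the genes. RefSeq promoter windows on GRCm38.p6, which run from 250 bases before to 50 bases after a gene's start, were found for 30 of the 39 genes. The core of the interferon-stimulated response element was searched as GAAA followed by any 2 bases and GAAA again, and the gamma-activated site as TTCNNNGAA, on both strands. This core lay in the windows of 17 of the 30 genes (56.7%), against 3.99% of 27025 genes with a window. TTCNNNGAA lay in 6 of the 30 (20%), against 9.55% of all genes. A match describes the letters of the window and does not show that a factor binds there. The 150 bases before the start of 6 genes are printed here, 5′ to 3′ on the strand of the gene, with sites of the response element core in capitals. A site on the opposite strand reads as TTTC, any 2 bases and TTTC.

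Ifi205 (chr1:174031756-174031905, minus strand) is shown because it had the largest cold effect of the measured genes, with 1 site in the stretch:
Ifi205: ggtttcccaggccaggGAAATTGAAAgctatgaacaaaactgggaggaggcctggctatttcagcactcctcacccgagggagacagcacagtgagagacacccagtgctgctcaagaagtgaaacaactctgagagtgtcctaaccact
Ifit1 (chr19:34640739-34640888, plus strand), a gene that was lower at 5 °C in wild-type mice, has 2 sites:
Ifit1: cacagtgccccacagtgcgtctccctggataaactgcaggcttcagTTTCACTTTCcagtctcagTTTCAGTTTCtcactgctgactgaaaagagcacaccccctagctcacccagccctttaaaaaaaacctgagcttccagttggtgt
Oas3 (chr5:120777660-120777809, minus strand), which was lower at 5 °C in the average of the genotypes, has 1 site:
Oas3: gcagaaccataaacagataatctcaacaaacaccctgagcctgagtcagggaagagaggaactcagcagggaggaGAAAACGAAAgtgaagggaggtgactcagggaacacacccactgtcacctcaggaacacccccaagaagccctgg
Isg15 (chr4:156200819-156200968, minus strand) has 3 sites that overlap one another, and its cold effect did not pass the test:
Isg15: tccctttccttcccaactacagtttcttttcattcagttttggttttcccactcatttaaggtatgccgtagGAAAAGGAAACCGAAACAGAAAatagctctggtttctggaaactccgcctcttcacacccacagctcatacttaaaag
Rsad2 (chr12:26456453-26456602, minus strand) has 1 site, and its cold effects had opposite signs in the genotypes, neither past the test:
Rsad2: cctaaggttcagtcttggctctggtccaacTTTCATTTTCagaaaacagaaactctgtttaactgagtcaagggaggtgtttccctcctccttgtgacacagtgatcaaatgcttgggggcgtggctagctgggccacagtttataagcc
Xaf1 (chr11:72301479-72301628, plus strand) has no site in its window although it was lower at 5 °C in both genotypes:
Xaf1: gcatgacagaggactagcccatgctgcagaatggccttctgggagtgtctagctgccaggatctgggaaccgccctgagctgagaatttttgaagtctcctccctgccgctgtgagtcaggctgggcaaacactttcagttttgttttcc

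These 6 genes are examples picked with their cold effects known, so they cannot show whether holding the core and being lower in the cold go together. Among measured genes with a window, 16 held the core somewhere in it and 7 of these were lower at 5 °C in the average of the genotypes. Of the 11 without it, 8 were lower. Of all genes, 13.1% were lower in that average. The median average cold effect was -0.20 with the core, -0.37 without it, and -0.33 for the 9 measured genes with no window, of which 6 were lower. In Ifitm3 and Bst2 a TTCNNNGAA match overlaps a match of the response element core.

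Some of the interferon-stimulated genes were called lower in the fat of cold mice, and none was called higher. In null mice 10 of the 36 measured genes were called lower at 5 °C than at 28 °C, by limma, where a call needed p under 0.05 after Benjamini-Hochberg adjustment over all genes. Among all genes 6.33% were called lower and 6.88% higher in that comparison. In wild-type mice 18 of the 36 were called lower, against 8.3% of all genes lower and 8.35% higher. Averaged over the genotypes, 21 of the 36 were called lower, against 13.1% of all genes lower and 11.7% higher. The count of 0 higher calls among the 36 genes was also 0 at an unadjusted p under 0.05 in each of the 3 comparisons. At that unadjusted level 19 of the genes were lower in null mice (12.4% of all genes), 21 in wild-type mice (14.3%) and 26 in the average (17.9%). The share of all genes higher at that level was 11.8%, 14% and 16.3% in the 3 comparisons, and that of genes in either direction 24.2%, 28.3% and 34.2%.

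The genes called lower in both genotypes numbered 8, namely Stat2, Ifih1, Ifi205, Xaf1, Parp14, Ifitm3, Sp100 and Samd9l. The share of all genes called lower in both genotypes was not computed, so this count has no such share beside it. Of these 8, Ifih1, Ifi205, Xaf1 and Ifitm3 were called in both genotypes under each setting tried. With 1 array left out, Sp100 lost its call in null mice in 16 of 22 fits, Stat2 in 5 and Samd9l in 3, and in wild-type mice Parp14 lost it in 2 and Stat2 and Samd9l in 1 each. Ifi35 and Trim30a were called in null mice and not in wild-type mice. Another 10 were called in wild-type mice and not in null mice, namely Ifit1, Ifit2, Usp18, Irf7, Irf9, Oas2, Oasl2, Dhx58, Rtp4 and Zbp1. Passing in 1 genotype and not in the other does not show a difference, and the difference of the cold effects was called for none of them. The count in null mice rests on few arrays: it was 6 without array 1 or 5 without array 5 at 5 °C, and 5 without array 1 or 6 without array 3 at 28 °C. It was 16 of the 33 then tested when the dimmest 50% of genes were left out, and 5 when only the null arrays were fitted. The shares of all genes called in these other fits are not given here. These counts therefore cannot be read against the share of 6.33% above.

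The median cold effect of the 36 genes was -0.30 in null mice, against -0.0034 over all genes, and -0.32 in wild-type mice, against 0.0093. In null mice the log2 cold effect was below 0 for all 36 genes (50.6% of all genes), and in wild-type mice for 34 (48.5% of all genes). The average cold effect ranged from -1.07 for Ifi205 to -0.04 for Gbp3, with Usp18 second lowest at -0.56. In fat as a whole, fewer cells that carry a transcript and less of it per cell cannot be told apart.

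**Figure D1:**
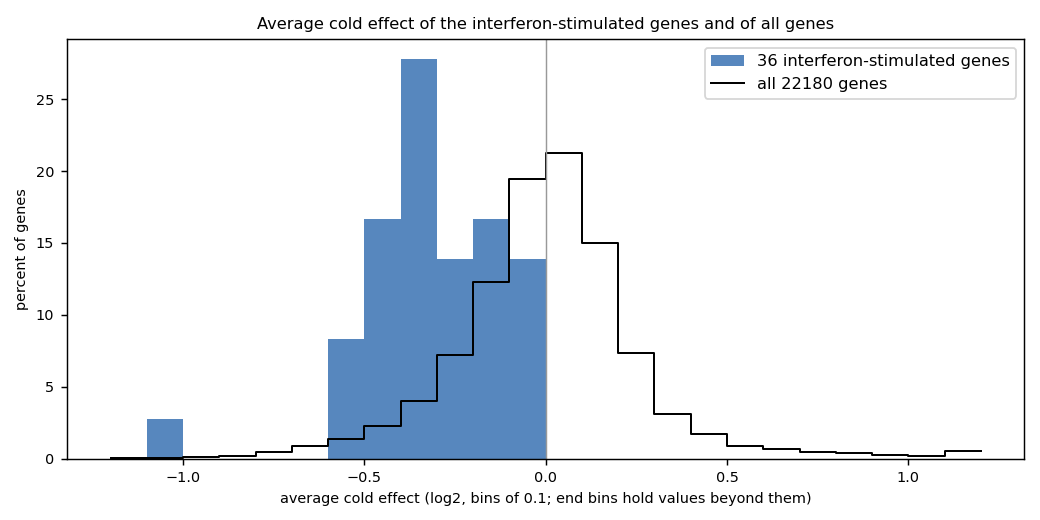
Share of genes (percent, y axis) by average cold effect (log2 expression at 5 °C minus 28 °C, mean of both genotypes, x axis, in bins of 0.1), for the 36 interferon-stimulated genes (filled) and all 22180 genes (line). All 36 lie below 0, around a median of -0.31, while the median over all genes is 0.0075.

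**Figure D2:**
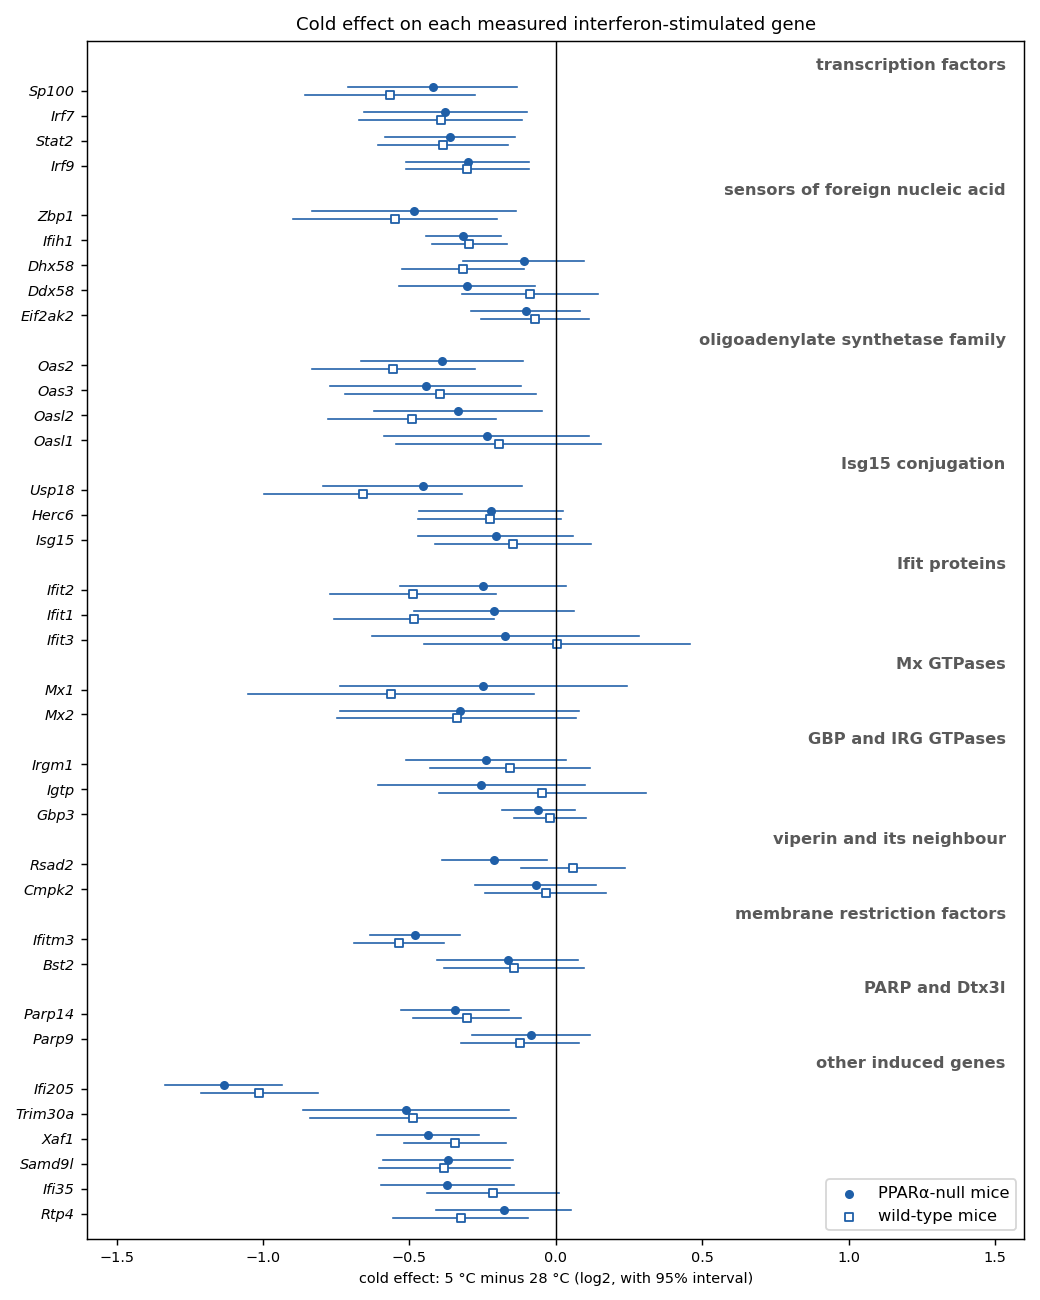
Cold effect of each measured interferon-stimulated gene (x axis, log2 expression at 5 °C minus 28 °C) with its 95% interval, in null mice (filled circles) and wild-type mice (open squares), grouped by role. Ifi205 stands apart near -1, and the points of the 2 genotypes lie close together for most genes.

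Markers of other cell types moved with the cold as well. Of 15 macrophage markers measured, 13 were lower at 5 °C in null mice (6.33% of all genes) and 13 in wild-type mice (8.3%). Among them were Adgre1 (F4/80), Cd68 and the mannose receptor Mrc1. The mean log2 level of the 15 markers per array was 7.70 to 7.92 in null mice at 5 °C, against 8.23 to 8.53 in null mice at 28 °C. In wild-type mice it was 7.60 to 8.01 at 5 °C, against 8.28 to 8.57 at 28 °C. Of 10 fibroblast and preadipocyte markers, such as Pdgfra, Dpp4 and Col1a1, 8 were lower at 5 °C in each genotype. None of 11 B and T cell markers was called, by limma, but their mean varied widely, at 3.97 to 6.78 and 4.17 to 5.79 in null and wild-type mice at 5 °C, and 4.41 to 7.95 and 4.35 to 7.44 in null and wild-type mice at 28 °C. RMA values have no true 0, so that no marker can be given as absent. With the B and T cell marker mean as a covariate, a fit added after these values were seen, 9 of the 36 genes were lower in null mice (6.59% of all genes), 16 in wild-type mice (8.93%) and 20 in the average (12.9%). The median cold effect of the 36 genes in null mice was -0.24 with this covariate and -0.30 without it. The part of macrophages and of fibroblasts in the lower levels was not tested.

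The transcription factors of the list were lower in the average. All 4, Sp100, Stat2, Irf7 and Irf9, were called lower in wild-type mice and in the average, and Sp100 and Stat2 in null mice. Of all genes, 8.3% were called lower in wild-type mice, 13.1% in the average and 6.33% in null mice. The same shares stand beside the counts of each role list below. Stat2 and Irf9 are parts of the complex that binds the response element. Stat2 read 6.86, 7.15, 7.16, 6.83 and 6.66 in null mice at 5 °C, against a lowest, median and highest of 7.13, 7.29 and 7.45 in null mice at 28 °C. Wild-type Stat2 read 7.09, 6.60, 6.91, 6.84 and 6.67 at 5 °C, against a lowest, median and highest of 6.96, 7.20 and 7.42 at 28 °C. In each genotype the highest cold arrays reached into the range at 28 °C, and the other cold arrays lay below it. For Stat2, the log2 cold effect was -0.36 (SE 0.11, limma adjusted p = 0.0268) in null mice and -0.39 (SE 0.11, adjusted p = 0.0145) in wild-type mice. Irf7 drives the second wave of type I interferon production. Irf7 averaged 6.99 ± 0.21 at 5 °C against 7.37 ± 0.25 at 28 °C in null mice, and 6.81 ± 0.16 at 5 °C against 7.20 ± 0.26 at 28 °C in wild-type mice (SD), with an average cold effect of -0.39 (SE 0.09, limma adjusted p = 0.0039). Irf9 averaged 6.84 ± 0.14 at 5 °C against 7.14 ± 0.15 at 28 °C in null mice, and 6.76 ± 0.10 at 5 °C against 7.06 ± 0.22 at 28 °C in wild-type mice (SD), with an average cold effect of -0.30 (SE 0.07, limma adjusted p = 0.00284).

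Sp100 is a protein of nuclear bodies that is induced by interferon and restrains viral gene expression. Sp100 measured 8.08, 7.98, 8.36, 8.07 and 8.05 in null mice at 5 °C, against a lowest, median and highest of 8.19, 8.52 and 9.06 in null mice at 28 °C. Wild-type Sp100 measured 8.26, 7.84, 8.03, 7.85 and 7.98 at 5 °C, against a lowest, median and highest of 8.31, 8.49 and 9.07 at 28 °C. In null mice the third cold array, at 8.36, lay inside the range at 28 °C, and in wild-type mice the groups did not overlap. For Sp100, the log2 cold effect was -0.42 (SE 0.14, limma adjusted p = 0.0487) in null mice and -0.57 (SE 0.14, adjusted p = 0.00601) in wild-type mice. The other 3 probe sets of Sp100 also had average cold effects below 0, between -0.51 and -0.34, in a fit over all probe sets. These 3 passed there in the average (limma adjusted p 0.0198 to 0.0487) but in neither genotype alone. The probe set used here had an adjusted p of 0.081 in null mice and 0.0116 in wild-type mice in that fit.

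Sensors of foreign nucleic acid were split. Ifih1, Zbp1 and Dhx58 were called lower in the average, while Ddx58 and Eif2ak2 were not. Ifih1 encodes MDA5, a cytosolic sensor of long double-stranded RNA. Ifih1 stood at 7.54, 7.69, 7.65, 7.52 and 7.59 in null mice at 5 °C, against a lowest, median and highest of 7.88, 7.91 and 8.00 in null mice at 28 °C. Wild-type Ifih1 stood at 7.69, 7.53, 7.71, 7.70 and 7.60 at 5 °C, against a lowest, median and highest of 7.84, 7.92 and 8.07 at 28 °C. Every cold array lay below every array at 28 °C in both genotypes, with a spread among mice of 0.04 to 0.10 (SD) within the groups. For Ifih1, the log2 cold effect was -0.32 (SE 0.06, limma adjusted p = 0.000968) in null mice and -0.30 (SE 0.06, adjusted p = 0.00147) in wild-type mice. Averaged over the genotypes, its cold signal was 0.809 of that at 28 °C on the unlogged scale.

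Zbp1 senses Z-form nucleic acid and can start cell death. Zbp1 gave 6.06, 6.56, 6.55, 6.16 and 6.10 in null mice at 5 °C, against a lowest, median and highest of 6.43, 6.72 and 7.29 in null mice at 28 °C. Wild-type Zbp1 gave 6.66, 6.38, 6.21, 6.16 and 6.10 at 5 °C, against a lowest, median and highest of 6.40, 6.99 and 7.15 at 28 °C. The groups overlapped in both genotypes, through cold arrays 2 and 3 of null mice and cold array 1 of wild-type mice. For Zbp1, the log2 cold effect was -0.48 (SE 0.17, limma adjusted p = 0.0602) in null mice and -0.55 (SE 0.17, adjusted p = 0.026) in wild-type mice. Dhx58 encodes LGP2, which modulates the other sensors of its family. Dhx58 averaged 5.43 ± 0.07 at 5 °C against 5.54 ± 0.22 at 28 °C in null mice, and 5.38 ± 0.15 at 5 °C against 5.69 ± 0.14 at 28 °C in wild-type mice (SD), with an average cold effect of -0.21 (SE 0.07, limma adjusted p = 0.029). Ddx58 encodes RIG-I and Eif2ak2 encodes PKR, a kinase that halts translation when it binds double-stranded RNA. Ddx58 had an average cold effect of -0.20 (SE 0.08, limma adjusted p = 0.076) and Eif2ak2 had an average cold effect of -0.09 (SE 0.06, limma adjusted p = 0.355).

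In the oligoadenylate synthetase family, whose active members make a second messenger that switches on RNA decay, Oas2 and Oasl2 were called lower in wild-type mice and none in null mice. In the average Oas2, Oas3 and Oasl2 were lower and Oasl1 was not called. Oas2 read 6.33, 6.41, 6.28, 6.12 and 6.25 in null mice at 5 °C, against a lowest, median and highest of 6.25, 6.80 and 6.96 in null mice at 28 °C. Wild-type Oas2 read 6.07, 6.33, 6.17, 5.72 and 6.06 at 5 °C, against a lowest, median and highest of 6.34, 6.62 and 6.81 at 28 °C. In wild-type mice the groups did not overlap, while 2 of the null arrays at 28 °C lay among the cold arrays. For Oas2, the log2 cold effect was -0.39 (SE 0.13, limma adjusted p = 0.0594) in null mice and -0.55 (SE 0.13, adjusted p = 0.00526) in wild-type mice. Oasl2 measured 6.65, 6.55, 6.69, 6.43 and 7.02 in null mice at 5 °C, against a lowest, median and highest of 6.76, 7.00 and 7.28 in null mice at 28 °C. Wild-type Oasl2 measured 6.87, 6.84, 6.65, 6.10 and 6.39 at 5 °C, against a lowest, median and highest of 6.88, 7.01 and 7.44 at 28 °C. The fifth null cold array reached the range at 28 °C, and the wild-type groups were apart by a small margin. For Oasl2, the log2 cold effect was -0.34 (SE 0.14, limma adjusted p = 0.126) in null mice and -0.49 (SE 0.14, adjusted p = 0.0158) in wild-type mice. Oas3 averaged 4.04 ± 0.17 at 5 °C against 4.48 ± 0.39 at 28 °C in null mice, and 3.91 ± 0.19 at 5 °C against 4.31 ± 0.25 at 28 °C in wild-type mice (SD), with an average cold effect of -0.42 (SE 0.11, limma adjusted p = 0.00685). Its signal was dim, and its means at 5 °C lay below every array median (4.16 to 4.25). Oasl1, which restrains translation of Irf7 in mice, had an average cold effect of -0.22 (SE 0.12, limma adjusted p = 0.215).

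Among genes of Isg15 conjugation, Usp18 was lower and Isg15 and Herc6 were not called. Isg15 is a ubiquitin-like protein, Herc6 its main ligase in mice, and Usp18 removes it and also damps signalling from the type I receptor. Usp18 stood at 6.40, 6.30, 7.03, 6.79 and 6.77 in null mice at 5 °C, against a lowest, median and highest of 6.79, 7.07 and 7.76 in null mice at 28 °C. Wild-type Usp18 stood at 6.48, 6.69, 6.37, 6.28 and 6.26 at 5 °C, against a lowest, median and highest of 6.79, 7.07 and 7.40 at 28 °C. The wild-type groups did not overlap, and in null mice the third cold array reached near the median at 28 °C. For Usp18, the log2 cold effect was -0.46 (SE 0.16, limma adjusted p = 0.0715) in null mice and -0.66 (SE 0.16, adjusted p = 0.00645) in wild-type mice. Herc6 gave 6.54, 6.54, 6.83, 6.43 and 6.83 in null mice at 5 °C, against a lowest, median and highest of 6.40, 6.94 and 7.11 in null mice at 28 °C. Wild-type Herc6 gave 6.75, 6.88, 6.93, 6.84 and 6.78 at 5 °C, against a lowest, median and highest of 6.89, 6.99 and 7.34 at 28 °C. The groups of each genotype overlapped. For Herc6, the log2 cold effect was -0.22 (SE 0.12, limma adjusted p = 0.265) in null mice and -0.23 (SE 0.12, adjusted p = 0.218) in wild-type mice. Isg15 averaged 5.24 ± 0.16 at 5 °C against 5.45 ± 0.30 at 28 °C in null mice, and 5.22 ± 0.13 at 5 °C against 5.37 ± 0.20 at 28 °C in wild-type mice (SD), with an average cold effect of -0.18 (SE 0.09, limma adjusted p = 0.176).

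Ifit proteins bind foreign RNA and block its translation. Ifit1 and Ifit2 were called lower in wild-type mice and in the average, and no Ifit gene was called in null mice. Ifit1 read 6.31, 6.31, 6.37, 6.02 and 6.21 in null mice at 5 °C, against a lowest, median and highest of 6.18, 6.53 and 6.60 in null mice at 28 °C. Wild-type Ifit1 read 5.73, 5.83, 5.71, 5.63 and 6.12 at 5 °C, against a lowest, median and highest of 5.95, 6.26 and 6.82 at 28 °C. Cold null mice overlapped null mice at 28 °C, whereas 4 of the 5 wild-type cold arrays lay below all wild-type arrays at 28 °C. For Ifit1, the log2 cold effect was -0.21 (SE 0.13, limma adjusted p = 0.365) in null mice and -0.49 (SE 0.13, adjusted p = 0.0122) in wild-type mice. Ifit2 measured 4.88, 5.53, 5.35, 5.35 and 5.51 in null mice at 5 °C, against a lowest, median and highest of 5.27, 5.52 and 5.98 in null mice at 28 °C. Wild-type Ifit2 measured 4.66, 5.33, 5.11, 5.06 and 4.92 at 5 °C, against a lowest, median and highest of 5.22, 5.52 and 5.72 at 28 °C. In wild-type mice the second cold array alone reached the range at 28 °C, and in null mice 4 did. For Ifit2, the log2 cold effect was -0.25 (SE 0.14, limma adjusted p = 0.285) in null mice and -0.49 (SE 0.14, adjusted p = 0.0158) in wild-type mice. Ifit3 spread widely within groups. Ifit3 averaged 5.16 ± 0.36 at 5 °C against 5.33 ± 0.16 at 28 °C in null mice, and 5.18 ± 0.52 at 5 °C against 5.18 ± 0.44 at 28 °C in wild-type mice (SD), with an average cold effect of -0.08 (SE 0.15, limma adjusted p = 0.757).

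The Mx GTPases trap viral components, and C57BL/6 mice are known for a defective Mx1 gene. Neither gene was called in any comparison, with Mx1 the only one of the 36 genes whose mean signal over all arrays lay below the median of the arrays. Mx1 stood at 3.31, 3.27, 3.59, 3.58 and 3.47 in null mice at 5 °C, against a lowest, median and highest of 3.09, 3.56 and 4.90 in null mice at 28 °C. Wild-type Mx1 stood at 3.69, 3.12, 3.75, 2.98 and 3.31 at 5 °C, against a lowest, median and highest of 3.41, 3.98 and 4.30 at 28 °C. One null array at 28 °C stood far above the rest, at 4.90, and the groups overlapped in both genotypes. For Mx1, the log2 cold effect was -0.25 (SE 0.24, limma adjusted p = 0.592) in null mice and -0.56 (SE 0.24, adjusted p = 0.114) in wild-type mice. Mx2 gave 3.90, 4.20, 4.30, 4.42 and 4.34 in null mice at 5 °C, against a lowest, median and highest of 4.10, 4.37 and 5.30 in null mice at 28 °C. Wild-type Mx2 gave 3.88, 4.00, 4.26, 4.32 and 3.51 at 5 °C, against a lowest, median and highest of 3.93, 4.35 and 4.62 at 28 °C. The Mx2 groups overlapped too. For Mx2, the log2 cold effect was -0.33 (SE 0.20, limma adjusted p = 0.337) in null mice and -0.34 (SE 0.20, adjusted p = 0.278) in wild-type mice.

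The GTPases induced mainly by interferon gamma, Irgm1, Igtp and Gbp3, act on the membranes around intracellular microbes, and none was called. Irgm1 read 5.53, 5.71, 5.58, 5.53 and 5.59 in null mice at 5 °C, against a lowest, median and highest of 5.63, 5.77 and 6.24 in null mice at 28 °C. Wild-type Irgm1 read 6.00, 5.56, 6.02, 5.57 and 5.65 at 5 °C, against a lowest, median and highest of 5.69, 5.75 and 6.31 at 28 °C. In null mice a single cold array reached the range at 28 °C, while the wild-type groups overlapped more. For Irgm1, the log2 cold effect was -0.24 (SE 0.13, limma adjusted p = 0.284) in null mice and -0.16 (SE 0.13, adjusted p = 0.485) in wild-type mice. Igtp measured 6.56, 6.79, 6.86, 6.33 and 6.55 in null mice at 5 °C, against a lowest, median and highest of 6.43, 6.83 and 7.24 in null mice at 28 °C. Wild-type Igtp measured 7.47, 6.91, 6.74, 6.76 and 6.59 at 5 °C, against a lowest, median and highest of 6.63, 6.88 and 7.46 at 28 °C. The highest wild-type value, 7.47, came from a cold mouse. For Igtp, the log2 cold effect was -0.25 (SE 0.17, limma adjusted p = 0.404) in null mice and -0.05 (SE 0.17, adjusted p = 0.898) in wild-type mice. Gbp3 varied least, with an average cold effect of -0.04 (SE 0.04, limma adjusted p = 0.551). The probe set shared by Gbp2 and Gbp2b had an average cold effect of -0.20 (SE 0.07, limma adjusted p = 0.0425) in a fit over all probe sets.

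Rsad2 encodes viperin, an enzyme that makes a chain-ending nucleotide which stops viral polymerases, and its neighbour Cmpk2 supplies nucleotides. Both lie on chromosome 12, Rsad2 at chr12:26442743-26456452 and Cmpk2 at chr12:26469117-26479837 on GRCm38.p6, and neither was called. Rsad2 stood at 6.62, 6.50, 6.41, 6.48 and 6.62 in null mice at 5 °C, against a lowest, median and highest of 6.59, 6.72 and 6.89 in null mice at 28 °C. Wild-type Rsad2 stood at 6.78, 6.73, 6.49, 6.35 and 6.78 at 5 °C, against a lowest, median and highest of 6.46, 6.57 and 6.68 at 28 °C. Wild-type cold mice held both the lowest and the highest wild-type values, and in null mice 2 cold arrays reached into the range at 28 °C. For Rsad2, the log2 cold effect was -0.21 (SE 0.09, limma adjusted p = 0.123) in null mice and 0.06 (SE 0.09, adjusted p = 0.725) in wild-type mice. Cmpk2 gave 6.97, 6.97, 6.94, 6.74 and 6.93 in null mice at 5 °C, against a lowest, median and highest of 6.80, 6.96 and 7.18 in null mice at 28 °C. Wild-type Cmpk2 gave 7.16, 6.89, 6.88, 6.70 and 7.01 at 5 °C, against a lowest, median and highest of 6.74, 6.98 and 7.31 at 28 °C. The groups overlapped in both genotypes. For Cmpk2, the log2 cold effect was -0.07 (SE 0.10, limma adjusted p = 0.746) in null mice and -0.03 (SE 0.10, adjusted p = 0.868) in wild-type mice.

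Of the membrane restriction factors, Ifitm3 was lower and Bst2 was not called. Ifitm3 blocks the fusion of viruses with endosomes, and Bst2 (tetherin) holds budding viruses at the cell surface. Ifitm3 read 10.27, 10.35, 10.22, 10.13 and 10.27 in null mice at 5 °C, against a lowest, median and highest of 10.64, 10.71 and 10.85 in null mice at 28 °C. Wild-type Ifitm3 read 10.19, 10.30, 10.41, 10.06 and 10.02 at 5 °C, against a lowest, median and highest of 10.60, 10.74 and 10.85 at 28 °C. No cold array reached the range at 28 °C in either genotype. For Ifitm3, the log2 cold effect was -0.48 (SE 0.07, limma adjusted p = 8.57e-05) in null mice and -0.54 (SE 0.07, adjusted p = 1.81e-05) in wild-type mice. On the unlogged scale the average cold signal of Ifitm3 was 0.703 of that at 28 °C. Bst2 measured 8.33, 8.39, 7.85, 8.25 and 7.94 in null mice at 5 °C, against a lowest, median and highest of 8.10, 8.28 and 8.56 in null mice at 28 °C. Wild-type Bst2 measured 8.20, 7.98, 7.76, 8.23 and 8.24 at 5 °C, against a lowest, median and highest of 8.04, 8.25 and 8.33 at 28 °C. The Bst2 groups overlapped in both genotypes. For Bst2, the log2 cold effect was -0.16 (SE 0.12, limma adjusted p = 0.432) in null mice and -0.14 (SE 0.12, adjusted p = 0.463) in wild-type mice.

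Parp14 and Parp9 are members of the ADP-ribosyltransferase family, and Dtx3l is the ligase that pairs with Parp9. Parp14 was lower in both genotypes and Parp9 in neither, although they are neighbours on chromosome 16, at chr16:35831892-35871518 and chr16:35938470-35972621. Parp14 stood at 7.80, 7.90, 7.91, 7.74 and 8.01 in null mice at 5 °C, against a lowest, median and highest of 8.09, 8.17 and 8.50 in null mice at 28 °C. Wild-type Parp14 stood at 7.96, 7.72, 8.03, 7.86 and 7.87 at 5 °C, against a lowest, median and highest of 7.99, 8.18 and 8.46 at 28 °C. Null groups did not overlap, and in wild-type mice a single cold array reached the range at 28 °C. For Parp14, the log2 cold effect was -0.34 (SE 0.09, limma adjusted p = 0.0109) in null mice and -0.30 (SE 0.09, adjusted p = 0.0211) in wild-type mice. Parp9 gave 7.47, 7.64, 7.64, 7.87 and 7.52 in null mice at 5 °C, against a lowest, median and highest of 7.63, 7.72 and 7.76 in null mice at 28 °C. Wild-type Parp9 gave 7.35, 7.42, 7.67, 7.66 and 7.74 at 5 °C, against a lowest, median and highest of 7.42, 7.69 and 7.96 at 28 °C. The Parp9 groups overlapped, and the highest null value came from a cold mouse. For Parp9, the log2 cold effect was -0.08 (SE 0.10, limma adjusted p = 0.677) in null mice and -0.12 (SE 0.10, adjusted p = 0.449) in wild-type mice. The probe set shared by Dtx3l and Parp9 had an average cold effect of -0.05 (SE 0.06, limma adjusted p = 0.669).

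All 6 measured genes with other roles were called lower in the average, against 13.1% of all genes. Ifi205, of the mouse family of interferon-inducible genes that includes DNA sensors, lies at chr1:174011998-174031755 on GRCm38.p6. Ifi205 read 9.34, 9.69, 9.62, 9.50 and 9.54 in null mice at 5 °C, against a lowest, median and highest of 10.43, 10.67 and 10.88 in null mice at 28 °C. Wild-type Ifi205 read 9.75, 9.48, 9.77, 9.56 and 9.53 at 5 °C, against a lowest, median and highest of 10.38, 10.61 and 10.91 at 28 °C. The cold arrays lay together well below all arrays at 28 °C in both genotypes. For Ifi205, the log2 cold effect was -1.13 (SE 0.10, limma adjusted p = 3.77e-08) in null mice and -1.01 (SE 0.10, adjusted p = 1.19e-07) in wild-type mice. The average cold signal of Ifi205 was 0.475 of that at 28 °C on the unlogged scale. Ifi205 has closely related copies beside it, such as Ifi204, and hybridization of their RNA to its probes was not tested.

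Xaf1 binds the inhibitor of cell death XIAP. Xaf1 measured 6.56, 6.50, 6.57, 6.38 and 6.34 in null mice at 5 °C, against a lowest, median and highest of 6.75, 6.91 and 7.04 in null mice at 28 °C. Wild-type Xaf1 measured 6.71, 6.25, 6.69, 6.57 and 6.56 at 5 °C, against a lowest, median and highest of 6.73, 6.89 and 7.04 at 28 °C. No cold array overlapped the arrays at 28 °C in either genotype, though the wild-type groups were nearly in contact. For Xaf1, the log2 cold effect was -0.44 (SE 0.08, limma adjusted p = 0.000898) in null mice and -0.35 (SE 0.08, adjusted p = 0.00549) in wild-type mice. Samd9l averaged 6.17 ± 0.15 at 5 °C against 6.53 ± 0.23 at 28 °C in null mice, and 6.13 ± 0.14 at 5 °C against 6.51 ± 0.16 at 28 °C in wild-type mice (SD), with an average cold effect of -0.37 (SE 0.08, limma adjusted p = 0.000688). Samd9l, which restrains translation, also had groups that did not overlap in either genotype. Trim30a averaged 4.91 ± 0.11 at 5 °C against 5.42 ± 0.41 at 28 °C in null mice, and 4.85 ± 0.35 at 5 °C against 5.34 ± 0.19 at 28 °C in wild-type mice (SD), with an average cold effect of -0.50 (SE 0.12, limma adjusted p = 0.00311). Trim30a is a mouse gene of the tripartite motif family. Ifi35 averaged 7.25 ± 0.16 at 5 °C against 7.62 ± 0.22 at 28 °C in null mice, and 7.28 ± 0.21 at 5 °C against 7.49 ± 0.11 at 28 °C in wild-type mice (SD), with an average cold effect of -0.29 (SE 0.08, limma adjusted p = 0.00663). A dimmer probe set of Ifi35, with a mean of 3.83 over all arrays, was not called in the fit over all probe sets. Its average cold effect there was -0.33 (SE 0.13, limma adjusted p = 0.083). Rtp4 averaged 6.93 ± 0.22 at 5 °C against 7.11 ± 0.18 at 28 °C in null mice, and 6.88 ± 0.16 at 5 °C against 7.20 ± 0.17 at 28 °C in wild-type mice (SD), with an average cold effect of -0.25 (SE 0.08, limma adjusted p = 0.0213). Rtp4 belongs to a family of receptor transporters and Ifi35 to the interferon-induced leucine zipper proteins.

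**Figure D3:**
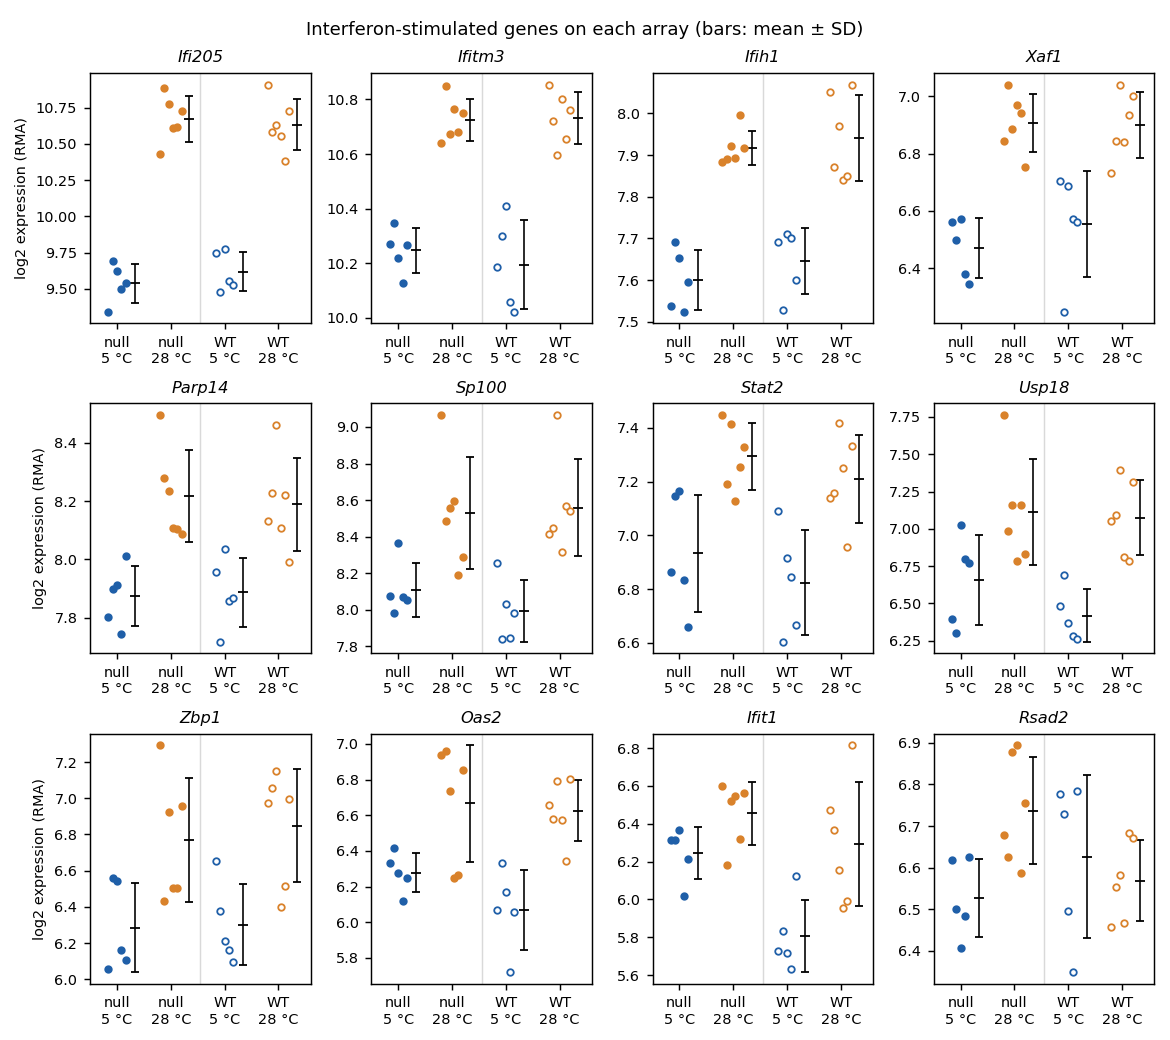
Log2 expression (y axis) of 12 interferon-stimulated genes on each array, by genotype and temperature (x axis); each point is 1 mouse and the bars are the mean ± SD. In Ifi205, Ifitm3, Ifih1 and Xaf1 no cold array reaches the arrays at 28 °C. In Ifit1 most of the wild-type cold mice lie lowest, but the highest of them, at 6.12, reaches the range at 28 °C. The groups overlap in Rsad2.

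Counting genes whose cold arrays all lay below all arrays at 28 °C needs no model. In null mice 6 of the 36 genes did so, against 4.06% of all genes: Ifih1, Ifi205, Xaf1, Parp14, Ifitm3 and Samd9l. In wild-type mice 10 did, against 5.53% of all genes: Usp18, Oas2, Oasl2, Ifih1, Dhx58, Ifi205, Xaf1, Ifitm3, Sp100 and Samd9l. None of the 36 genes had all cold arrays above all arrays at 28 °C, in null mice (5.05% of all genes) or in wild-type mice (6.27%).

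Upstream of these genes the pathway lists moved unevenly. Of 19 interferon genes measured, none was called lower, and Ifna16 alone was higher in the average. Of all genes, 13.1% were lower and 11.7% higher in the average. Ifna16 averaged 1.69 ± 0.23 at 5 °C against 1.51 ± 0.26 at 28 °C in null mice, and 2.18 ± 0.49 at 5 °C against 1.63 ± 0.25 at 28 °C in wild-type mice (SD), below the lower quartile of every array, which lay between 2.83 and 2.91. In wild-type mice Ifna16 and Ifnb1 were called higher, with log2 cold effects of 0.55 (SE 0.18, limma adjusted p = 0.0426) and 0.59 (SE 0.18, adjusted p = 0.0276). Of all genes, 8.35% were higher in wild-type mice. Ifnb1 averaged 2.51 at 5 °C and 1.92 at 28 °C in wild-type mice, also in that dim range. Ifne, Ifna4 and Ifnl2 had average cold effects of 0.19, -0.22 and -0.24, none past the test.

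Of the 9 receptor and kinase genes 4 were lower in the average and none higher, against 13.1% of all genes lower and 11.7% higher. Ifngr1 averaged 9.92 ± 0.10 at 5 °C against 10.47 ± 0.11 at 28 °C in null mice, and 9.93 ± 0.19 at 5 °C against 10.48 ± 0.10 at 28 °C in wild-type mice (SD). This chain binds interferon gamma, and its log2 cold effect was -0.55 in null mice (SE 0.08, limma adjusted p = 6.66e-05) and -0.55 in wild-type mice (SE 0.08, adjusted p = 6.08e-05). Il10rb, a chain of the type III receptor, had an average cold effect of -0.32 (SE 0.05, limma adjusted p = 8.42e-05). Tyk2 had an average cold effect of -0.30 (SE 0.07, limma adjusted p = 0.0017), and Jak1 had an average cold effect of -0.25 (SE 0.06, limma adjusted p = 0.00423). The type I receptor chains Ifnar1 and Ifnar2 had average cold effects of -0.14 and 0.06, neither past the test; they were named after their values were seen. Of 9 signal factors and inhibitors measured, 3 were lower. Pias1, an inhibitor of interferon signalling, had an average cold effect of -0.43 (SE 0.06, limma adjusted p = 9.62e-06), Irf2, a repressor at interferon promoters, had an average cold effect of -0.37 (SE 0.08, limma adjusted p = 0.000674), and the phosphatase gene Ptpn6 had an average cold effect of -0.73 (SE 0.24, limma adjusted p = 0.0308). Irf1 had an average cold effect of -0.14 that did not pass the test.

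Among 13 measured adaptors and upstream sensors 6 were lower in the average, namely Sting1, Tlr7, Tlr8, Tlr9, Trim25 and Aim2, and Mavs was higher. Of all genes, 13.1% were lower and 11.7% higher in that comparison. Mavs, which carries the signal of RIG-I and MDA5, sits on the outer membrane of mitochondria. Mavs averaged 9.04 ± 0.11 at 5 °C against 8.51 ± 0.06 at 28 °C in null mice, and 8.97 ± 0.16 at 5 °C against 8.49 ± 0.07 at 28 °C in wild-type mice (SD), with an average cold effect of 0.51 (SE 0.05, limma adjusted p = 9.36e-08). Trim25, an activator of RIG-I, had an average cold effect of -0.24 (SE 0.05, limma adjusted p = 0.0012). Tlr7 and Tlr9, endosomal receptors for RNA and DNA, had average cold effects of -0.32 and -0.53, with limma adjusted p of 0.0123 and 0.0129. A further 51 interferon-induced genes outside the list were measured, of which 26 were lower in the average and 1 was higher. In null mice 11 were lower and 1 higher (6.33% and 6.88% of all genes), and in wild-type mice 12 were lower and 1 higher (8.3% and 8.35%). The gene that was higher was Ifi27 in all 3 comparisons. Ifi27 averaged 10.46 ± 0.07 at 5 °C against 9.86 ± 0.15 at 28 °C in null mice, and 10.52 ± 0.09 at 5 °C against 9.90 ± 0.15 at 28 °C in wild-type mice (SD), with an average cold effect of 0.61 (SE 0.06, limma adjusted p = 4.39e-08). Samhd1, which depletes nucleotides, had an average cold effect of -0.66 (SE 0.08, limma adjusted p = 7.86e-07). Gbp7 had an average cold effect of -0.41 (SE 0.06, limma adjusted p = 3.88e-05), and Isg20, an RNA-degrading enzyme, had an average cold effect of -0.33 (SE 0.06, limma adjusted p = 9.63e-05).

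Genotype made no called difference to any of the 36 genes. At 5 °C none was called between null and wild-type mice by limma, where 0.108% of all genes were called lower and 0.0406% higher in null mice. At an unadjusted p under 0.05 there were 2, both higher in null mice, against 3.2% of all genes higher, 3.45% lower and 6.65% in either direction. These were Ifit1, with a log2 difference (null minus wild type) of 0.44 (SE 0.14, adjusted p = 0.416 by limma), and Ifit2, with 0.31 (SE 0.14, adjusted p = 0.741). The differences of the 36 genes at 5 °C ranged from -0.28 to 0.44. At 28 °C none was called, where 0.149% of all genes were lower and 0.0451% higher in null mice, and none of the 36 reached an unadjusted p under 0.05, against 3.01% of all genes lower, 3.73% higher and 6.74% in either direction. The differences at 28 °C ranged from -0.24 to 0.23. Ifi44l, which is not among the 36, was called higher in null mice at 28 °C, where it averaged 4.95 ± 0.55 in null mice and 1.89 ± 0.25 in wild-type mice (SD, limma adjusted p = 3.12e-09). At 5 °C Ifi44l averaged 4.33 ± 0.22 in null mice and 1.98 ± 0.26 in wild-type mice (SD). Its wild-type values all lay below the lower quartile of every array, so that the size of the difference is uncertain.

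The difference of the cold effects (null minus wild type) was called for none of the 36 genes, nor for any of the 22180 genes (0%). At an unadjusted p under 0.05 there was 1 of the 36, in the lower direction, against 3.02% of all genes lower, 2.11% higher and 5.13% in either direction. That gene was Rsad2, at -0.27 (95% interval -0.52 to -0.02, limma adjusted p = 0.963). The differences ranged from -0.27 for Rsad2 to 0.31 for Mx1, with a median of -0.01. The 95% intervals were taken gene by gene, with no allowance for the 36 genes looked at together, so some may miss the true difference. For 19 of the 36 genes the interval lay within 0.5 log2 units of 0 on both sides, and for 35 within 1. For Ifi205 it ran from -0.40 to 0.16, for Ifih1 from -0.20 to 0.16, and for Mx1 from -0.38 to 1.01.

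Taken as 1 mean per mouse, the 36 genes separated the temperatures in both genotypes. The mean log2 level ran from 6.44 to 6.62 in null mice at 5 °C (6.50 ± 0.07, SD, n = 5), against 6.67 to 7.09 in null mice at 28 °C (6.81 ± 0.16, n = 6). In wild-type mice it ran from 6.40 to 6.60 at 5 °C (6.46 ± 0.08, n = 5), against 6.65 to 6.94 at 28 °C (6.78 ± 0.12, n = 6). No cold mouse reached the range of mice at 28 °C of its genotype. The highest mouse, the first null array at 28 °C at 7.09, was also highest in the B and T cell marker mean, at 7.95. The means are descriptions, since the genes were chosen with earlier results of these data known.

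**Figure D4:**
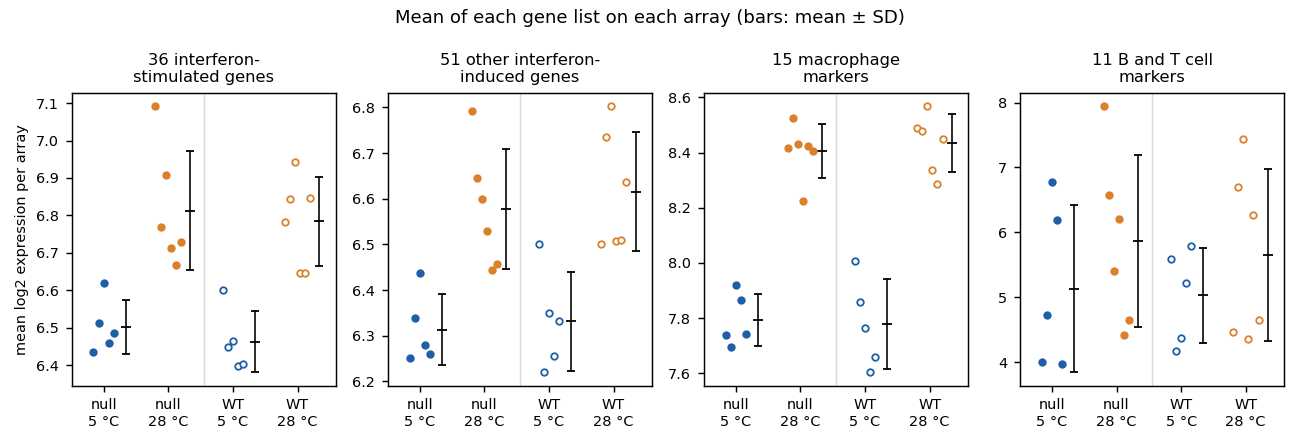
Mean log2 expression per array (y axis) of 4 gene lists, by genotype and temperature (x axis); each point is 1 mouse and the bars are the mean ± SD. Cold mice lie below mice at 28 °C in the 36 interferon-stimulated genes and in the macrophage markers, and overlap them in the B and T cell markers. In the 51 other interferon-induced genes the null groups lie barely apart (highest at 5 °C 6.438, lowest at 28 °C 6.445). The wild-type groups just overlap there (6.5007 and 6.5005).

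Within groups, most of the genes varied together from mouse to mouse. Each gene's deviation from its group mean was correlated over the 22 arrays with the mean deviation of the other measured genes of the list. The median Pearson r was 0.56 (Spearman rho 0.48), and 20 of the 36 genes had r over 0.5. Genes outside the list had a median r of -0.03 with the list, with quartiles of -0.21 and 0.17, and 4.52% of them had r over 0.5. The arrays share 1 normalization, and r of the mean of all genes with the list was 0.21. Zbp1 (0.85), Irf7 (0.83), Sp100 (0.79) and Ddx58 (0.77) followed the list most closely. Ifi205 (r 0.10, rho 0.36), Xaf1 (r 0.12, rho 0.16), Ifih1 (r 0.22, rho 0.28) and Ifitm3 (r -0.18, rho -0.10), which were among the clearest cold effects, lay below the median of the 36 genes in both measures. Parp14 and Stat2, also lower in both genotypes, had r of 0.61 and 0.62. Without the first null array at 28 °C the median r was 0.46.

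**Figure D5:**
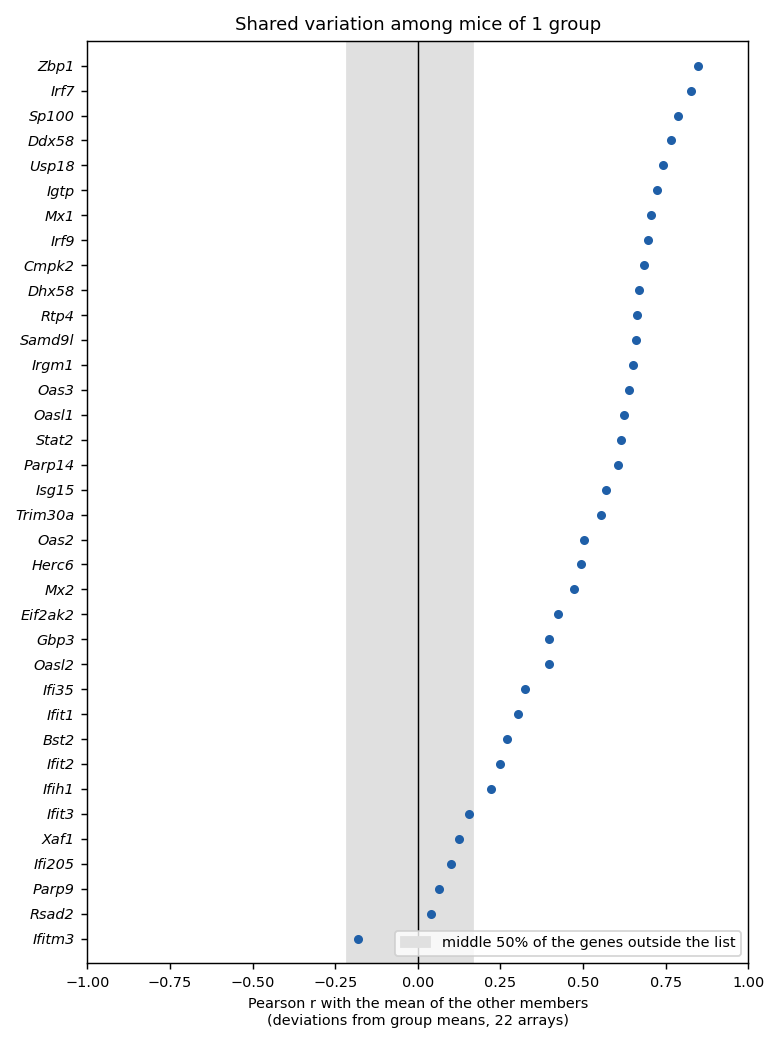
Pearson r over 22 arrays between each gene's deviation from its group mean and that of the mean of the other interferon-stimulated genes (x axis), with genes in order of r (y axis); the grey band holds the middle 50% of genes outside the list. Zbp1 and Irf7 lie highest, and Ifitm3, Rsad2, Parp9, Ifi205, Xaf1 and Ifit3 lie inside the band.

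The 10 genes outside the list whose deviations followed its mean most closely were Rab8a (r 0.91), Vrk3, Rnf213, Mta2, Psmb8, Tbc1d8, Pml, Phf11b, Helz2 and Snn (r 0.79). Their average cold effects differed. Pml, of the nuclear bodies that also hold Sp100, had -0.42 (limma adjusted p = 0.00212), Phf11b had -0.62 (adjusted p = 0.00161) and Rnf213 had -0.30 (adjusted p = 0.00866). Rab8a, at -0.09, and Vrk3, at -0.0030, did not pass the test. The mean of the 51 other interferon-induced genes followed the list with r of 0.87 (rho 0.81, and r 0.80 without the 2 arrays farthest from the median). The macrophage marker mean did so with r of 0.57 (rho 0.59, and r 0.48 without the 2 farthest arrays). For the B and T cell marker mean r was 0.57 (rho 0.52), and 0.32 without the 2 farthest arrays.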

How the data were processed

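Total RNA of inguinal fat (100 ng per array, integrity number above 8, per the labels' protocols) was hybridized to Affymetrix arrays, 22 mice in 4 groups of 5 or 6. The labels give 10 mice housed per group, and no source used here says how the arrayed mice were picked. The authors deposited log2 expression values per probe set, computed with RMA per the submitters' processing notes, with no version given there. They were used as deposited. The number of arrays limits the precision, and arrays carry no read depth.

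Of 41345 probe sets, 23521 had 1 gene symbol, 1814 several and 16010 none in the platform annotation, which left 22180 genes. Array medians lay between 4.16 and 4.25, and correlations between arrays between 0.958 and 0.981. limma 3.58.1 under R 4.3.3 fitted the 4 groups together (18 residual and 3.35 prior degrees of freedom). Calls needed p under 0.05 after Benjamini-Hochberg adjustment over all genes. Figures were drawn with matplotlib 3.10.9.

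The genes, their role lists, 5 pathway lists and the cell marker lists were chosen with earlier results of these data known, and no list was tested as a set. Values are printed per array for the 6 members with the smallest p in the average cold effect and the 2 with the smallest p in each role. In pathway lists up to 4 genes with the smallest p and exceptions to the direction are named, as are the 10 closest followers, Ppara, Ucp1 and Ifi44l. Tmem173 and Mb21d1 were matched to their current symbols Sting1 and Cgas. Promoter windows came from RefSeq. Alternatives were other scaling, low-signal filters, probe set choice, variance models, array weights, fits of the compared groups alone, a replicate block, leaving out each array, and, added after seeing the data, a lymphocyte covariate and a fit over all probe sets.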

Additional observations from a re-analysis of the deposited data

Results flagged for a closer look

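In 16 of 148 checked groups of 5 or 6 arrays, the highest or the lowest array stood far from the others relative to the group's range (Dixon's criterion at 95%). Chance does so in about 1 of 20 groups. The genes were measured in the same mice, so these are not separate events, and no cause was tested.

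The first null array at 28 °C was the highest of its group and stood apart in 4 genes, at 5.54 in Oasl1, 4.90 in Mx1, 6.24 in Irgm1 and 6.97 in Samd9l. It also had the highest mean of the 36 genes and of the B and T cell markers. Other null arrays at 28 °C stood apart at the high end in Ifit3 (5.65, array 4) and Ifih1 (8.00, array 5), and at the low end in Gbp3 (6.35, array 5). Among null arrays at 5 °C, low values stood apart in Ifit2 (4.88, array 1), Isg15 (4.96, array 2) and Cmpk2 (6.74, array 4), and a high value in Sp100 (8.36, array 3).

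Wild-type arrays at 5 °C stood apart at the low end in Oas3 (3.58, array 3) and Ddx58 (6.62, array 2). At 28 °C they stood apart at the high end in Oasl2 (7.44, array 1), Gbp3 (6.62, array 2) and Sp100 (9.07, array 3).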

How the results depend on the processing

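The count of genes lower in null mice, 10, depended most on the processing. It was 16 without the dimmest 50% of genes and 5 when only the null arrays were fitted. It ran from 5 to 14 when 1 array was left out. The causes of these changes were not tested. In wild-type mice the count of 18 ran from 12 to 20 without 1 array and from 14 to 19 under the other settings, and in the average the count of 21 ran from 20 to 23 and from 19 to 22. No gene of the list was called higher in any cold comparison, and none for genotype or for the difference of the cold effects, under the settings that gave a value (32 for each genotype's cold effect and each genotype comparison, 31 for the average and the difference). Without the dimmest 50% of genes 33 of the 36 were tested, leaving out Oas3, Mx1 and Mx2. Of 6822 values of single genes under other settings, 6616 kept their side of the threshold, 135 no longer passed, 71 passed newly and 0 changed sign past it. Called under every setting that tested them were 5 of the 10 genes in null mice (Ifih1, Ifi205, Xaf1, Parp14 and Ifitm3), 7 of the 18 in wild-type mice (Usp18, Oas2, Ifih1, Ifi205, Xaf1, Ifitm3 and Sp100) and 19 of the 21 in the average, all but Dhx58 and Rtp4. With the replicate number as a block the counts were 12, 17 and 22. Shares of all genes called are not given for the settings in this section. Its counts of called genes therefore cannot be read against the shares given above. Deviations of arrays with the same number had correlations from -0.25 to 0.35, and 4 of 22 arrays matched their own number best. No sign of pairing by number was seen there, but such correlations cannot show that the mice are unpaired. The search for the response element core before the start alone found it in 13 genes, and for TTCNNNGAA in 4. With 5 or 6 mice per group, whole-tissue RNA and dim signals for the interferon genes, small changes and changes within 1 cell type were beyond what these arrays resolve.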

Other observations

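Few markers of plasmacytoid dendritic cells, natural killer cells and neutrophils were called. Of all genes, 13.1% were lower in the average, 6.33% in null mice and 8.3% in wild-type mice. Of 8 markers of plasmacytoid dendritic cells, which release type I interferon, 1 was lower at 5 °C in the average of the genotypes, the transcription factor gene Tcf4, and none in either genotype alone. Their mean log2 level per array was 4.36 to 5.24 in null mice and 4.43 to 4.95 in wild-type mice at 5 °C, and 4.63 to 5.61 in null mice and 4.69 to 5.73 in wild-type mice at 28 °C, and all groups overlapped. Of 6 natural killer cell markers, Gzma was lower in null mice and in the average. Of 8 neutrophil markers, Csf3r was lower in each genotype. Skeletal muscle markers, of which none of 10 was called by limma in any comparison, ranged per array from 6.33 to 9.47 in null mice at 5 °C and from 5.78 to 8.48 in null mice at 28 °C, and from 6.18 to 9.95 in wild-type mice at 5 °C and from 7.16 to 9.20 in wild-type mice at 28 °C.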
